A study of Homo sapiens with 17 samples.

Results

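DDX17 and DDX5 are the transcripts described here, each read through the eCLIP peaks that lie on it. A peak belonged to DDX17 when it was on the minus strand with its midpoint in chr22:38879443-38902345 of build hg19 (22903 nt), and to DDX5 when it was on the minus strand with its midpoint in chr17:62494372-62503088 (8717 nt). Of 389788 deposited peaks in 11 libraries, 636 met this rule, 411 in DDX17 and 225 in DDX5. The transcripts were chosen by the log2 folds of these same libraries, those of RNF219 above all. Counts and folds on them are therefore descriptions, without tests.

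DDX17 and DDX5 are paralogous DEAD-box proteins, ATP-dependent RNA helicases named after a conserved Asp-Glu-Ala-Asp motif. Helicases of this family open short RNA duplexes and remodel RNA-protein complexes. In the nucleus this pair is known from pre-mRNA splicing, from the processing of primary microRNAs and as partners of transcription factors. Here their own RNAs are looked at as possible targets of other proteins.

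The cells were 293T, an established human embryonic kidney line. All were exposed on the plate to ultraviolet light of 254 nm at 400 mJ/cm2, which fixes proteins to the RNA they touch. In eCLIP the lysate is treated with RNase I, 1 protein is pulled down with an antibody, and RNA is recovered from a membrane piece reaching 75 kDa above that protein. The 17 samples were 11 such libraries and 6 size-matched inputs, which are RNA from the same gel window without pull-down, 1 for each protein. AIFM1, a flavoprotein of mitochondria, and NUMA1, which organises the mitotic spindle, had 2 replicates each. So did RANGAP1, which switches on GTP hydrolysis by Ran, VIM, which is vimentin of the intermediate filaments, and ZNF184, which carries zinc fingers. RNF219, with a RING finger, had 1 library and so no replicate. The series calls replicates biological and says no more about how they were grown. Replicates of 1 protein shared 1 input.

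The authors gave every peak a log2 fold of eCLIP over input and a -log10 p. A peak is called significant here at a log2 fold of at least 3 (8-fold) and a -log10 p of at least 3, and "2-fold" at a log2 fold of at least 1 with the same p. The p-values are the authors', with no adjustment for the number of peaks visible in the lists. Reads printed below were recovered from the folds and p-values, and 95% Clopper-Pearson intervals made from them cover counting error only. Input depth divided by eCLIP depth was lowest in AIFM1 replicate 2 (0.534), then RNF219 (0.701) and AIFM1 replicate 1 (1.22), and highest in VIM replicate 1 (4.84). A significant peak beside 1 input read needed 18 eCLIP reads in RNF219, 12 and 23 in AIFM1, and between 5 and 11 in the 8 libraries of NUMA1, RANGAP1, VIM and ZNF184. The lists held between 10682 and 63198 peaks.

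RNF219 had 12 significant peaks among its 52 in DDX17 (23.1%) and 4 among its 24 in DDX5 (16.7%), where 0.926% of all its peaks were significant. The 16 peaks made up 7.02% of its 228 significant peaks, while both transcripts together held 0.309% of its deposited peaks. Some of the 16 abut, so they are not independent counts. ZNF184 replicate 2 had 1 significant peak in DDX17, or 2.04% of its 49 there, below the 4.82% of all its peaks. The remaining 9 libraries had 0 significant peaks in either transcript. Their share over all peaks was 0.216% and 0.214% in AIFM1, 1.51% and 0.877% in NUMA1, 1.52% and 2.99% in RANGAP1, 5.29% and 4.5% in VIM and 3.15% in ZNF184 replicate 1. In AIFM1, with 26 and 68 significant peaks in all, a count of 0 allows a share of up to 11.5% and 4.41% of them in these transcripts (3 counts of the total). The shares over all peaks include many peaks with few reads. In a sample of all RNF219 peaks with recovered reads, the median was 4 eCLIP reads and 1 input read. Beside 1 input read 18 eCLIP reads were needed. The median RNF219 peak held 33 eCLIP reads in DDX17 and 17 in DDX5. The DDX17 and DDX5 counts of RNF219 are the values for which the transcripts were chosen, and nothing is read from their distance to the background.

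The 3 strongest RNF219 peaks in DDX17, from the highest fold down, had their midpoints 6975, 5143 and 7303.5 nt from the 3′ end of the interval. The first, chr22:38886398-38886438, had a log2 fold of 4.77 (interval 2.21 to 10.1), from 39 eCLIP reads beside 1 input read. The next was chr22:38884572-38884600, at 4.07 (1.46 to 9.43) from 24 reads beside 1. The third was chr22:38886733-38886760, at 4.04 (2.11 to 7.13) from 47 reads beside 2. That peak belonged to a run of 3 abutting pieces between 38886709 and 38886774, with log2 folds of 3.98, 4.04 and 3.13. Further significant peaks began at 38880913 (3.07), 38881736 (3.44), 38881773 (3.49), 38884192 (3.36), 38884723 (3.04), 38885587 (3.58) and 38885929 (3.07). All 12 thus lay between 38880913 and 38886774, and their input reads were 1 at 2 peaks, 2 at 7 peaks and 3 or 4 at 3 peaks. The lower bounds of their intervals ranged from 1.06 to 2.21. At a -log10 p of at least 5 and a log2 fold of at least 4, 2 of the 12 were left. Just inside the fold threshold were 3 peaks, 1 at 3.04 from 47 eCLIP reads beside 4, and 2 at 3.07 from 48 reads beside 4 and from 24 beside 2. Just outside were 2 peaks at 2.95 each, chr22:38879649-38879661 with 22 reads beside 2 and chr22:38880028-38880075 with 77 reads beside 7.

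In DDX5 the strongest RNF219 peak was chr17:62496156-62496258, at 4.77 (2.21 to 10.1) from 39 eCLIP reads beside 1. An abutting pair followed, chr17:62496771-62496824 at 4.39 (1.81 to 9.75) from 30 reads and chr17:62496725-62496770 at 4.24 (1.64 to 9.60) from 27. The midpoints of these 3 peaks were 1835 to 2425.5 nt from the 3′ end of the interval. The remaining 1, chr17:62499305-62499391 at 4.13 (1.52 to 9.49) from 25 reads, was 4976 nt from it. Each of the 4 rested on 1 input read. A peak at chr17:62496065-62496111 with a log2 fold of 3.58, from 17 reads beside 1, missed on p alone, at a -log10 p of 2.89.

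Other libraries had few peaks at these places and lower folds there. The places were picked for high RNF219 folds, so lower folds elsewhere follow in part from that choice and are given as a description. Of the 12 RNF219 places in DDX17, 8 were overlapped by a peak of at least 1 other library, 18 values in all, from -1.65 to 1.85. At the strongest DDX17 place the log2 folds were 1.85 and 1.64 in ZNF184 and 0.03 and 0.10 in NUMA1, and 6 libraries listed no peak. ZNF184 was on the other side of input at chr22:38881736-38881772, at -1.65 and -1.50, where RNF219 stood at 3.44. In DDX5 all 4 places were overlapped, with 14 values from -1.06 to 2.56. The highest was AIFM1 replicate 2 at the abutting pair, 2.56 from 11 eCLIP reads beside 1, while AIFM1 replicate 1 had no peak there. The strongest DDX5 place stood at 1.01 and 1.33 in NUMA1 and 1.23 in ZNF184 replicate 2. A place without a listed peak gives no value, which is not a fold of 0.

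**Figure D1:**
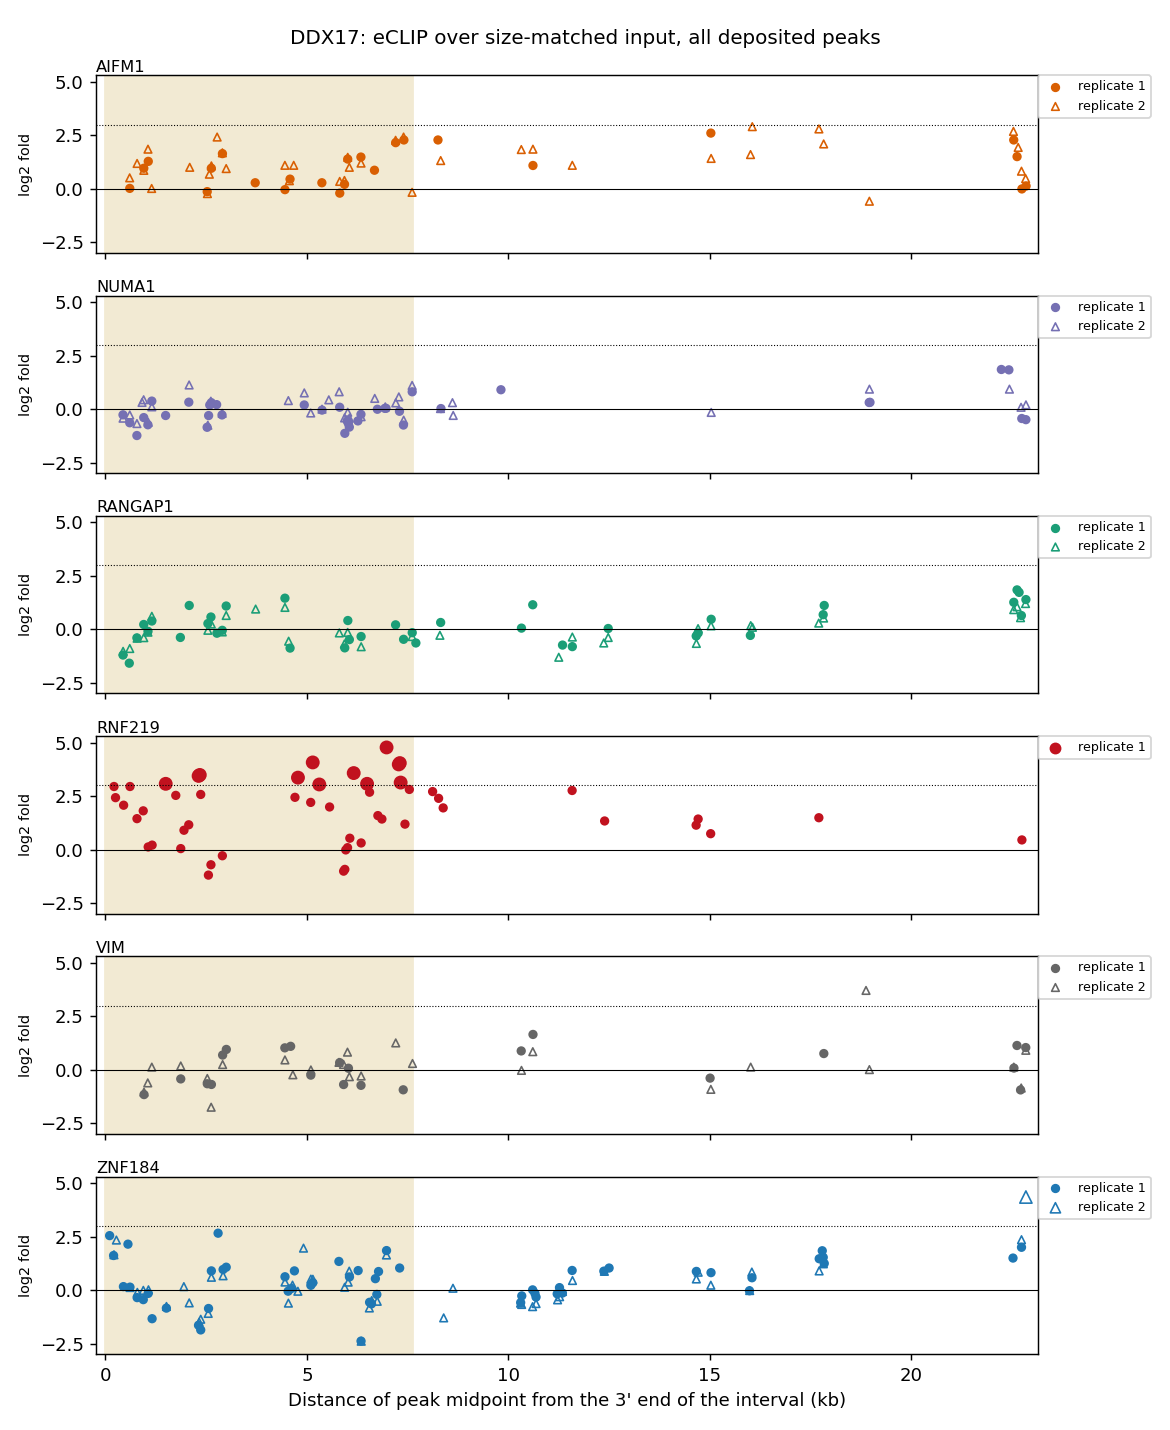
Log2 fold of eCLIP over size-matched input (vertical axis) for the 411 DDX17 peaks, by distance of the peak midpoint from the 3′ end of the interval in kb, 1 panel per protein. Filled circles are replicate 1, open triangles replicate 2, large marks significant peaks, the dotted line a log2 fold of 3 and the shaded area the 3′ end of 7634 nt; the 12 large RNF219 marks all lie in the shaded area, and the only other large mark is ZNF184 replicate 2 near the 5′ end.

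Over all its DDX17 peaks RNF219 had the highest median log2 fold of any library, 1.97 over 52 peaks. AIFM1 came next, at 0.96 over 24 peaks and 1.10 over 37 peaks. ZNF184 stood at 0.53 over 55 peaks and 0.12 over 49 peaks. VIM had 0.08 over 22 and 0.13 over 26, RANGAP1 0.05 over 40 and -0.13 over 34, and NUMA1 -0.11 over 37 and 0.10 over 35. The means were 1.03 ± 0.10 (SD, n = 2) in AIFM1, 0.33 ± 0.29 in ZNF184, 0.10 ± 0.03 in VIM, -0.0024 ± 0.15 in NUMA1 and -0.04 ± 0.12 in RANGAP1. RNF219 and both AIFM1 replicates lay above every other library. The replicate values of ZNF184 overlapped those of VIM, and NUMA1 overlapped both VIM and RANGAP1. The pooled SD between replicates was 0.16 for DDX17, over 5 proteins.

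In DDX5 the order began the same way. RNF219 had a median of 1.90 over 24 peaks, and AIFM1 had 1.12 over 12 and 1.02 over 23. NUMA1 followed at 0.41 over 18 and 0.97 over 19. ZNF184 replicates lay on either side of 0, at 0.38 over 37 peaks and -0.34 over 32, and so did VIM, at 0.67 over 12 and -0.61 over 7. RANGAP1 was lowest as a pair, with -0.29 over 18 and -0.39 over 23. The means were 1.07 ± 0.07 (SD, n = 2) in AIFM1, 0.69 ± 0.39 in NUMA1, 0.03 ± 0.90 in VIM, 0.02 ± 0.51 in ZNF184 and -0.34 ± 0.08 in RANGAP1. With a pooled SD of 0.50 between replicates, NUMA1, VIM and ZNF184 could not be put in order.

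The median folds of these transcripts were below the median fold of all peaks in most libraries. The median log2 fold over all peaks of a library was between 0.68 and 2.27, and 9 of 11 libraries had both transcripts below it. In NUMA1, RANGAP1, VIM and ZNF184 the DDX17 median was 0.69 to 2.20 below the library median and the DDX5 median 0.38 to 2.81 below. The peaks differ in depth. Median input reads in these libraries were 3 or 4 over samples of all peaks, against 21.5 to 34.5 in DDX17, where reads could be recovered. The part of read depth in these distances was not tested. RNF219 was above its library median by 0.90 in DDX17 and 0.83 in DDX5, and about 90% of its peaks (90.1% and 89.8%) had folds under these transcript medians. AIFM1 replicate 2 was above by 0.42 and 0.34, while AIFM1 replicate 1 differed from its library median by -0.21 and -0.05. Over the 11 libraries the distance from the library median in DDX17 and that in DDX5 had a Pearson r of 0.89 and a Spearman rho of 0.81, and without RNF219 0.84 and 0.75 over 10. The points share libraries and inputs, so these values only describe.

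**Figure D2:**
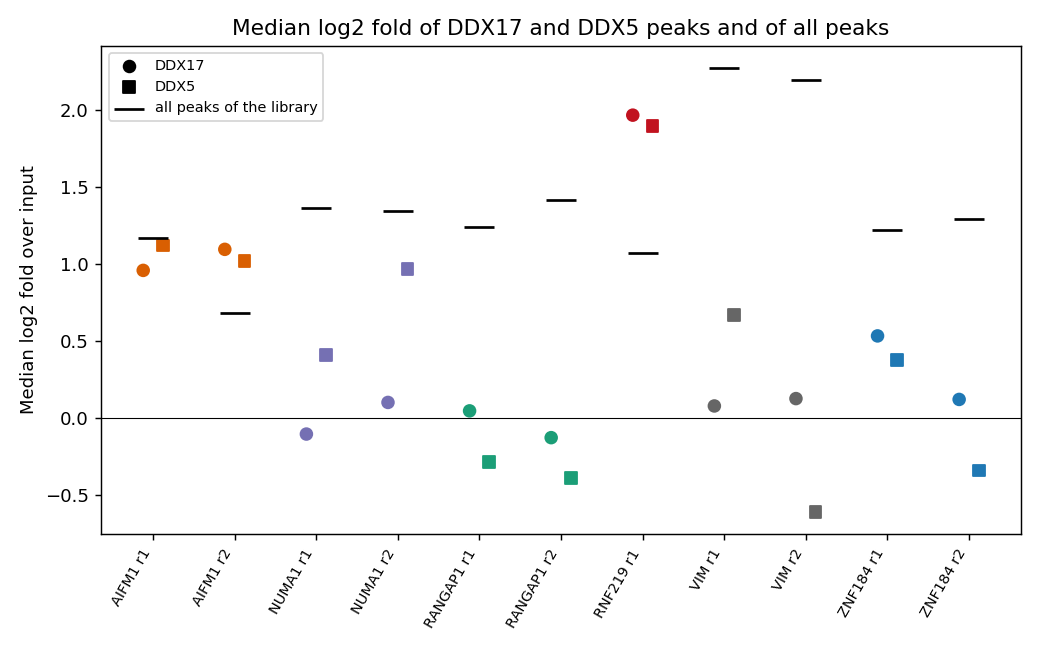
Median log2 fold over input of the DDX17 peaks (circles) and DDX5 peaks (squares) in each of the 11 libraries, with the median of all peaks of that library as a black bar; r1 and r2 are replicates. Only RNF219 and AIFM1 replicate 2 have both marks above the bar, and in VIM the bar lies at 2.27 and 2.20, far above both marks.

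For the 3′ end against the body, each interval was split at 33.3% of its length. The 3′ end was the nearest 7634 nt of DDX17 and the nearest 2906 nt of DDX5. In DDX17, RNF219 had a median log2 fold of 2.14 over 42 peaks at the 3′ end and 1.46 over 10 peaks in the body, a difference of 0.68. None of the other 10 libraries had a difference above 0. AIFM1 had 0.87 at the 3′ end and 1.50 in the body in replicate 1, and 1.003 and 1.72 in replicate 2; its body medians were at or above the 1.46 of RNF219. The differences were -0.64 and -0.71 in AIFM1, -0.58 and -0.04 in NUMA1, -0.52 and -0.29 in RANGAP1, -1.16 and 0 in VIM and -0.53 and -0.04 in ZNF184. Their means were -0.68 ± 0.05 (SD, n = 2), -0.31 ± 0.38, -0.40 ± 0.17, -0.58 ± 0.82 and -0.28 ± 0.35 in this order. The RNF219 difference has no replicate to set it against, and it shrank to 0.042 when peaks were weighted by length.

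In DDX5 the 3′ end stood out more in RNF219, at 3.58 over 7 peaks against 1.30 over 17 in the body, a difference of 2.28. ZNF184 had differences of 0.12 and 1.17 and NUMA1 0.53 and 0.81. RANGAP1 was near 0, at 0.13 and -0.05, and VIM below, at -0.23 and -0.06. These rested on 2 and 5 peaks at the 3′ end in RANGAP1 and on 2 and 1 in VIM. AIFM1 went the other way, at -2.00 and -0.64, but replicate 1 had a single peak at the 3′ end. The means were 0.67 ± 0.19 (SD, n = 2) in NUMA1, 0.65 ± 0.74 in ZNF184, 0.04 ± 0.13 in RANGAP1, -0.15 ± 0.12 in VIM and -1.32 ± 0.96 in AIFM1. No library had more than 9 peaks at the DDX5 3′ end. With the split at 50% of the interval the RNF219 difference fell to 0.54, below the 1.01 of VIM replicate 2.

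**Figure D3:**
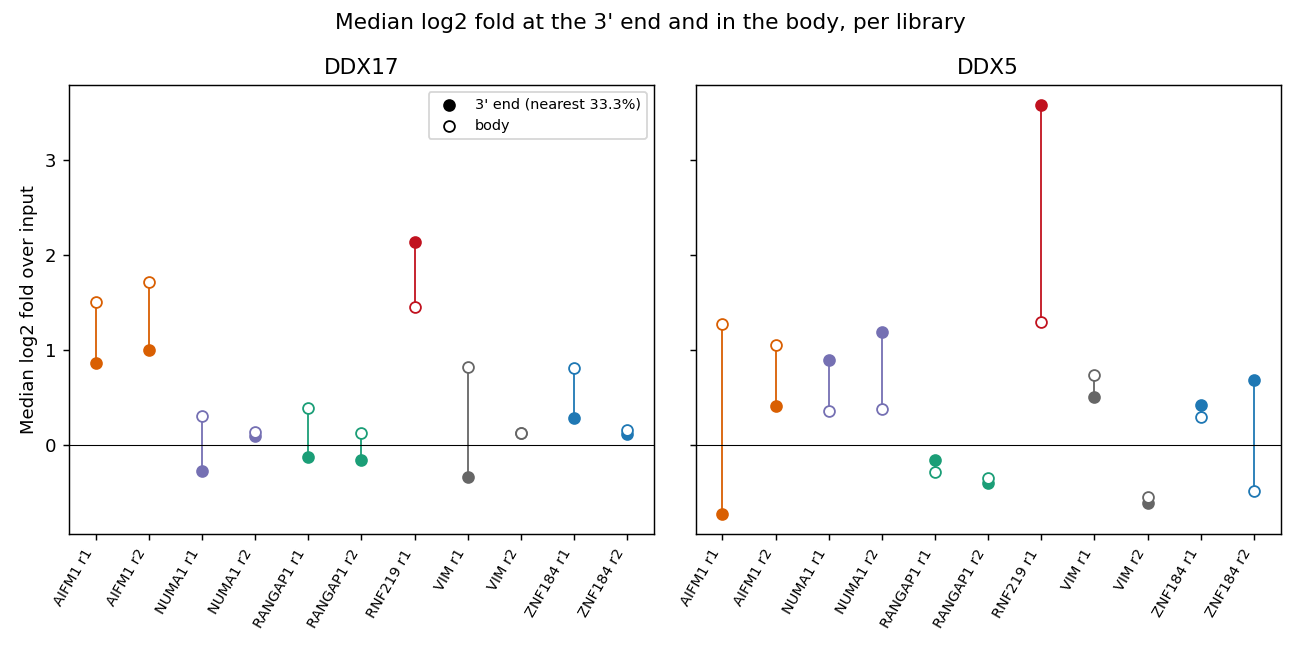
Median log2 fold over input at the 3′ end (filled) and in the body (open) of DDX17 and DDX5, 1 line per library; the 3′ end is the nearest 33.3% of the interval. In DDX17 only RNF219 has the filled mark above the open one, at 2.14 against 1.46, and in DDX5 its marks lie at 3.58 and 1.30.

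Along DDX17, in steps of 1000 nt, RNF219 had the highest median of all libraries in 10 of the 14 steps where it had peaks. At 4000 to 5000 nt from the 3′ end it stood at 2.90 over 2 peaks, with other libraries from 0.11 to 1.10. At 7000 to 8000 nt it was 3.13 over 5 peaks, with others from -0.93 to 2.27. At 1000 to 2000 nt it was 0.56 over 6 peaks, below the 1.28 of the single peak of AIFM1 replicate 1. At the 5′ end, 22000 to 23000 nt, RNF219 had 1 peak at 0.45, while ZNF184 had 1.75 and 3.35 from 2 peaks each. In DDX5, in steps of 500 nt, RNF219 was highest in 6 of 10 steps. It reached 4.24 over 3 peaks at 2000 to 2500 nt, where the others ran from -0.72 to 1.13, and fell to -0.93 at its only peak near the 5′ end.

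**Figure D4:**
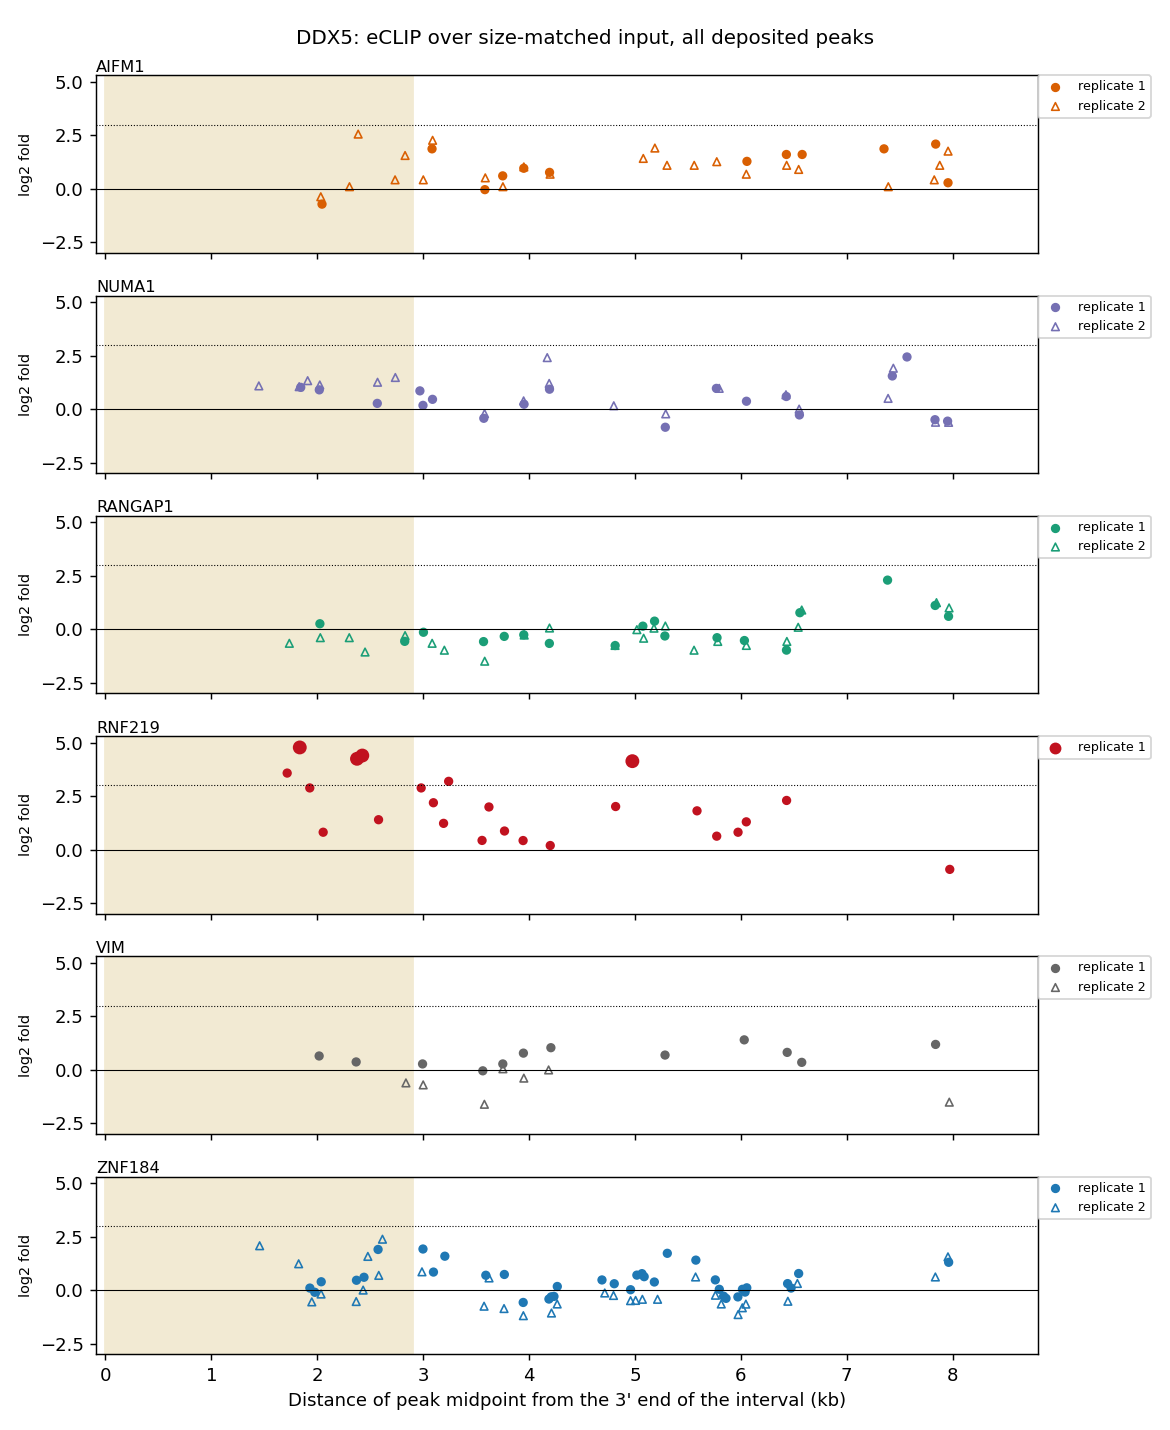
Log2 fold of eCLIP over size-matched input (vertical axis) for the 225 DDX5 peaks, by distance of the peak midpoint from the 3′ end of the interval in kb, 1 panel per protein, with marks as in the DDX17 plot and the 3′ end of 2906 nt shaded. Of the 4 large RNF219 marks 3 lie in the shaded area, at 4.24 to 4.77, and 1 outside it at 4.13; the RNF219 peak nearest the 5′ end lies at -0.93.

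The RNF219 folds went with few input reads. Reads were settled at 333 of the 636 peaks, all above input. The 228 peaks below input carry a -log10 p of 0 and give at best the least reads possible. Over settled peaks, 45 of 52 in DDX17 and 23 of 24 in DDX5, the median RNF219 peak held 33 eCLIP and 5 input reads in DDX17 and 17 and 3 in DDX5. AIFM1 also had few input reads, 4 and 4 in DDX17 and 2 and 2 in DDX5, whereas the medians of NUMA1, RANGAP1, VIM and ZNF184 lay between 21.5 and 34.5 in DDX17, over 10 to 27 settled peaks a library. RNF219 and AIFM1 also had the lowest ratios of input to eCLIP depth. With 10 or more input reads, the RNF219 median was 0.38 over 16 peaks in DDX17, in sixth place of 11 libraries. These ranged from 0.13 to 0.96. Least reads were counted where not settled, and 0 where a fold was no ratio of at most 200 to at most 50 reads. Many deep peaks are thus missed, among them peaks below input. The limit kept 18 of 37 and 16 of 35 DDX17 peaks in NUMA1. Only 1 and 0 NUMA1 peaks there had settled reads with fewer than 10 in the input. Under this limit the mean DDX17 median rose from -0.0024 to 0.27 in NUMA1, from -0.04 to 0.23 in RANGAP1 and from 0.33 to 0.66 in ZNF184. It rose from 0.10 to 0.23 in VIM and fell from 1.03 to 0.90 in AIFM1. The part of the missed peaks in the place of RNF219 was not tested. With this limit the RNF219 3′ end lay below the body, at a difference of -0.53 over 13 and 3 peaks. In DDX5 only 2 RNF219 peaks had 10 input reads, with a median of 0.42, and neither was at the 3′ end. Among settled peaks with fewer than 10 input reads, a split chosen after these values were seen and holding only peaks above input, the RNF219 median was 2.71 over 33 peaks in DDX17. AIFM1 had 1.64 over 11 and 1.60 over 25, and no other library had more than 2 such peaks. In DDX5 these medians were 2.01 over 21 in RNF219 and 1.60 over 9 and 1.10 over 16 in AIFM1. NUMA1 had 2.43 over 1 and 1.47 over 3, RANGAP1 replicate 1 had 2.30 over 1, and ZNF184 had 1.92 over 1 and 2.22 over 2. RNF219 was at rank 3 of the 7 libraries with such peaks in DDX17 and at rank 4 of 8 in DDX5. The part of input depth in the height of the RNF219 folds was not tested.

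**Figure D5:**
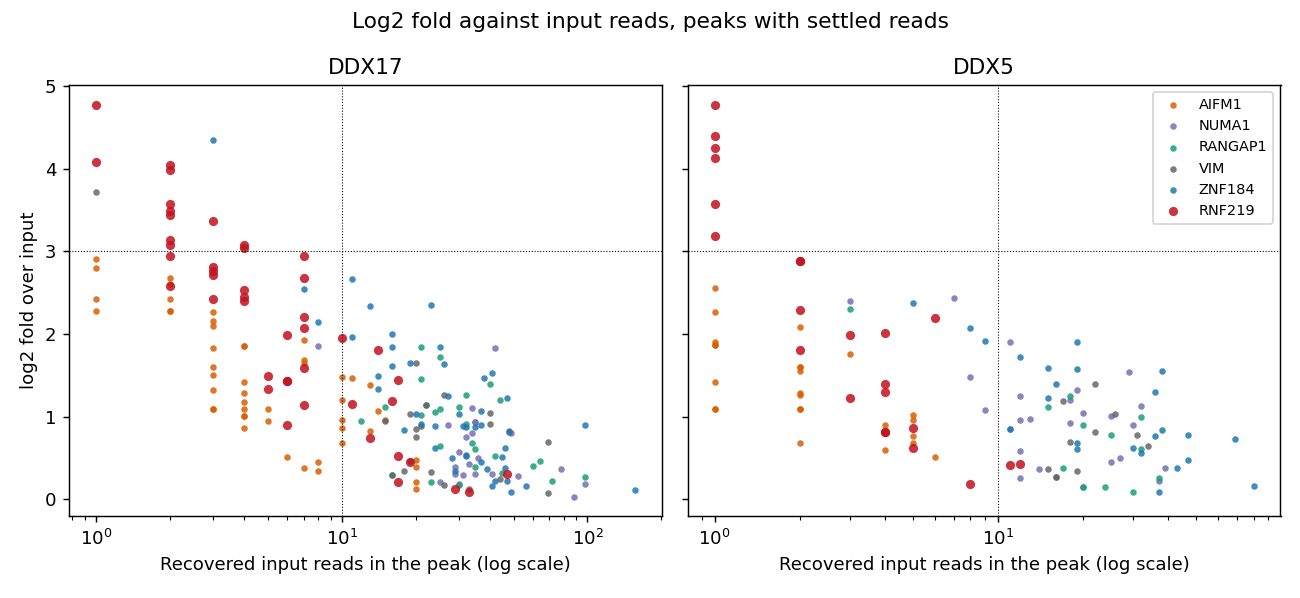
Log2 fold over input (vertical axis) against recovered input reads per peak (horizontal, log scale) for DDX17 and DDX5 peaks with settled reads, coloured by protein; dotted lines mark a log2 fold of 3 and 10 input reads. The 16 significant RNF219 peaks all have 1 to 4 input reads, and at 10 or more input reads no RNF219 peak exceeds 1.95. Peaks below input have no settled reads and are not drawn.

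At 2-fold, RNF219 had 26 of 52 peaks in DDX17 (50%) and 5 of 24 in DDX5 (20.8%), with 2.28% over all its peaks. ZNF184 had 11 of 55 (20%) and 7 of 49 (14.3%) in DDX17 and 5 of 37 (13.5%) and 4 of 32 (12.5%) in DDX5, with 9.26% and 10% over all peaks. RANGAP1 had 5 of 40 and 1 of 34 in DDX17 and 0 in DDX5, with 5.97% and 8.58% over all. NUMA1 had 1 of 37 and 1 of 35 in DDX17 and 2 of 18 and 0 of 19 in DDX5, with 5.8% and 3.37% over all. AIFM1 had 0 of 24 and 1 of 37 in DDX17 and 0 in DDX5, with 0.847% and 0.741% over all. VIM had 0 in both transcripts, with 8.35% and 6.67% over all. Apart from RNF219, the 2-fold peaks were mostly those of ZNF184, 27 of the 38 in the 10 libraries. Here too the shares over all peaks include many peaks with few reads, with library medians of 3 to 8 eCLIP reads in samples of the lists. The part of read depth in these shares was not tested.

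ZNF184 and RANGAP1 had repeated 2-fold peaks at the 5′ end of DDX17. At chr22:38902030-38902205 the highest log2 folds were 2.00 and 2.36 in ZNF184, 1.84 in RANGAP1 replicate 1 and 1.93 in AIFM1 replicate 2, all at 2-fold. These peaks did not all overlap each other. Peaks overlapping that of ZNF184 replicate 1, chr22:38902154-38902191, had 0.64 in RANGAP1 replicate 1 and 0.82 in AIFM1 replicate 2. All 11 libraries had a peak in chr22:38902030-38902205, and RNF219 stood at 0.45 and NUMA1 at -0.44 and 0.08. Next to it, at chr22:38902235-38902314, both RANGAP1 replicates passed, at 1.39 and 1.20. The significant ZNF184 replicate 2 peak, chr22:38902264-38902299 at 4.35 (2.70 to 6.69) from 40 eCLIP reads beside 3, lay in this region, where ZNF184 replicate 1 had no peak. Both ZNF184 replicates also passed at 3 other DDX17 regions, chr22:38879636-38879668 (1.62 and 1.65), chr22:38886356-38886439 (1.85 and 1.64) and chr22:38897224-38897286 (1.84 and 1.23). In DDX5 both passed near the 5′ end, at chr17:62502285-62502380 (1.30 and 1.55), where RNF219 was at -0.93. These were all the regions at 2-fold in both replicates of a protein, 5 in DDX17 and 1 in DDX5.

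Merging peaks of all libraries that shared at least 1 nt gave 76 regions in DDX17 and 36 in DDX5. Of these 11 and 3 held a significant peak, and 0 were significant with more than 1 protein. At 2-fold 4 DDX17 regions and 1 DDX5 region had more than 1 protein. The DDX5 region, chr17:62496716-62496865, joined RNF219 at 4.39 and ZNF184 replicate 2 at 1.57, but from peaks that did not overlap each other. At the abutting RNF219 pair in this region ZNF184 replicate 2 stood at -0.54 and -0.0013. All 11 libraries had a peak in 6 DDX17 and 3 DDX5 regions, and RNF219 was highest in 1 of each. In DDX17 that was chr22:38880340-38880419, where RNF219 had 1.81 and the next was AIFM1 replicate 1 at 0.96. In DDX5 it was chr17:62497907-62498014, with 1.99 in RNF219 and at most 0.69 elsewhere. In 4 of the other DDX17 regions with all libraries both AIFM1 replicates were above every other library: chr22:38881940-38882111 (0.96 and 1.07), chr22:38882291-38882446 (1.64 and 1.68), chr22:38885328-38885523 (1.39 and 1.47) and chr22:38885754-38885812 (1.48 and 1.20). At the last of these ZNF184 had its lowest folds in DDX17, -2.38 and -2.39.

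Replicates were set against each other over overlapping peaks. Both folds of a pair are over the same input, which by itself moves them together, and how much of the correlation that gives was not tested. Over overlapping DDX17 peaks, Pearson's r of the log2 fold was 0.90 in RANGAP1 (31 pairs of peaks), 0.88 in ZNF184 (46), 0.78 in AIFM1 (23), 0.73 in NUMA1 (32) and 0.66 in VIM (18). In DDX5 it was 0.85 in NUMA1 (15), 0.76 in RANGAP1 (16), 0.73 in ZNF184 (38), 0.70 in VIM (5) and 0.48 in AIFM1 (11). Pairs of peaks are also pieces of 1 transcript, so that these values come without p. The median absolute difference between replicates was 0.28 to 0.44 in DDX17 and 0.23 to 1.04 in DDX5, where VIM, with 5 pairs, was highest.

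Peaks were short and covered the intervals unevenly. The median peak length in RNF219 was 32.5 nt in DDX17 and 30 nt in DDX5, within the 30 to 45 nt and 28 to 47.5 nt of the other libraries. No library had a plus-strand peak with its midpoint in either interval. No library had a DDX5 peak in the 1435 nt at the 3′ end or the 708 nt at the 5′ end of the interval. In DDX17 the longest stretch without a peak in any library was 3248 nt, chr22:38898419-38901666, just inside the peaks of the 5′ end. RNF219 had 42 of its 52 DDX17 peaks in the 33.3% of the interval nearest the 3′ end. NUMA1 had 29 of 37 and 27 of 35 there, AIFM1 17 of 24 and 23 of 37, VIM 14 of 22 and 17 of 26, ZNF184 34 of 55 and 29 of 49, and RANGAP1 22 of 40 and 18 of 34. Most peaks of every library thus lay in this stretch of DDX17. Exon and intron borders in build hg19 and the sequence under the peaks were not analysed here.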

How the data were processed

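Per the submitters' processing notes the tools were cutadapt, STAR, GATK, Picard and SAMtools with build hg19; the sources used here give no versions, peak caller or duplicate removal. The authors deposited 1 peak list per eCLIP library, with a -log10 p (up to 400, and 0 for every peak below input) and a log2 fold over the size-matched input as the deposited values; none was made from pooled replicates. Groups came from sample titles.

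Folds were taken as (eCLIP reads / input reads) times 1 constant per library, found from the commonest folds. Over all peaks of a library, between 95.1% and 98.9% of folds were ratios of at most 200 to at most 50 reads, to within 1e-07 on the log2 scale. In DDX17 many NUMA1 folds were no such ratio. Reads were settled where exactly 1 multiple gave the deposited p, by an exact binomial or Yates-corrected chi-square p (tolerance 0.005 in log10 units). Elsewhere, which includes all peaks below input, reads are lower limits, set to 0 where the fold was no such ratio. In DDX17 and DDX5 together reads were settled at 333 of 636 peaks. Read recovery was tried on data simulated with these same formulae, which checks the procedure but cannot show that the deposited values follow the formulae.

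Medians were taken over peaks per library, then mean and SD over replicates (Python 3.11.15, pandas 2.3.3, scipy 1.17.1). No test across samples was made. The transcripts, the split of the intervals and the thresholds were chosen with earlier results of these data known. Named peaks were, in each library and transcript, the 3 significant peaks with the highest folds, and regions significant in both replicates or several proteins (none was); all other peaks and the 2-fold regions were named after their values were seen. Other helicase genes and genes of like pattern were not analysed here, since no hg19 annotation was used. Alternatives were the split of the interval, weighting, thresholds, input reads, joining of equal abutting peaks, overlap rules and single replicates.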

Additional observations from a re-analysis of the deposited data

Results flagged for a closer look

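In DDX5, both AIFM1 replicates had a median log2 fold above 0 (1.12 and 1.02) and both RANGAP1 replicates one below 0 (-0.29 and -0.39). The means differed by 1.41. The difference was not tested.

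For the 3′ end minus the body of DDX5, both NUMA1 replicates were above 0 (0.53 and 0.81) and both AIFM1 replicates below (-2.00 and -0.64). The means differed by 1.99, and this was not tested either. AIFM1 replicate 1 had 1 peak at the DDX5 3′ end and replicate 2 had 5, against 3 and 6 in NUMA1.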

How the results depend on the processing

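No paired analysis was possible because the values come from no test: the folds chose the transcripts, and each protein has its own input. The last exon as the 3′ end was not run, since no hg19 annotation was used. RNF219 had 2 significant DDX17 peaks at a -log10 p of at least 5 and a log2 fold of at least 4, and 26 at 2-fold; its DDX5 count stayed within 1.5 times. For the 3′ end minus the body, 64 of 76 values under alternatives moved by less than the pooled SD between replicates. That number is partly given in advance. Joining equal abutting peaks changed no value. Leaving out replicate 1 or 2 gave 10 values each, 8 of them within the SD, which comes from these same replicates. Changes of sign smaller than the SD are among the 64. In DDX5 a split at 50% took RANGAP1 from 0.04 to -0.49 and VIM from -0.15 to 0.28. With at least 10 input reads RNF219 in DDX17 turned to -0.53 and AIFM1 to 0.61 (from 7 and 8 peaks), and ZNF184 in DDX5 rose to 1.41. Weighting by length gave 0.042 for RNF219 in DDX17. Splitting at 50% gave -0.92 for ZNF184 in DDX17, and -0.75 for AIFM1 and 0.54 for RNF219 in DDX5; splitting at 25% gave 1.63 for RNF219 in DDX5. With 1 replicate left out, VIM in DDX17 ranged from -1.16 to 0 and AIFM1 in DDX5 from -2.00 to -0.64. Relative to the library median, 5 mean transcript medians went from above 0 to below: ZNF184 (-0.93) and VIM (-2.13) in DDX17, and NUMA1 (-0.67), VIM (-2.21) and ZNF184 (-1.24) in DDX5. RNF219 had the highest transcript medians under overlap, weighting and centring on the library, but not when peaks were limited by input reads.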
